A study of Homo sapiens with 6 samples.

Results

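The transcripts of 32 genes for purine and pyrimidine nucleotide synthesis were followed in RCC4 cells with ATF4 knocked out or intact. The genes were taken from a list of de novo, salvage and deoxynucleotide enzymes, by symbol, with no threshold on their levels. RCC4 is an established line from human clear cell kidney cancer without working VHL, the ubiquitin ligase subunit that removes HIF. All 32 were found among the 60683 genes of the count table and all 32 were among the 15321 genes that passed the filter on low counts. RNA sequencing was performed on ATF4 knockout RCC4 cells (n = 3) and on parental RCC4 cells, labelled wild type (n = 3), with no treatment named for either. Nothing in the labels tells how ATF4 was disrupted, if the knockout cells were 1 clone or a pool, or if replicates came from separate cultures. The p-values therefore refer to the spread among these 6 libraries alone, part of which may be technical.

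Cells make purines on a ribose phosphate scaffold, PRPP, closing the ring to IMP and then branching to AMP and GMP. Pyrimidines are made as a ring first, joined to PRPP as UMP, and aminated to CTP. Ribonucleotide reductase turns ribonucleotides into deoxyribonucleotides, thymidylate synthase makes dTMP, and salvage enzymes recover free bases and nucleosides. Some of these enzymes, thymidylate synthase and the RRM2 subunit among them, are textbook S-phase genes whose transcription follows E2F factors, while others are expressed throughout the cell cycle. ATF4, a bZIP transcription factor of the integrated stress response, is known for driving amino acid and one-carbon genes that feed purine synthesis. The 6 S-phase-linked genes were set as TYMS, RRM1, RRM2, TK1, DUT and DTYMK, which left 26 other genes.

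Total counts were 41002611 to 46755358 per library, and 3 counts, taken as the limit that a count of 0 allows, corresponded to 0.0642 to 0.0732 counts-per-million of the total (without TMM factors, counting error only). All other CPM values are counts-per-million after TMM scaling. ATF4 mRNA itself averaged 214 CPM in knockout and 244 CPM in parental cells (log2 fold change -0.19, SE 0.029, edgeR adjusted p = 3.19e-07), and the median of its neighbours, taken as up to 50 tested genes on each side, was -0.25. Whether these reads come from a disrupted transcript was not tested. Of 10 markers of renal carcinoma and kidney epithelium, 9 were expressed enough to be tested, with PAX8 at 215 CPM in knockout and 238 CPM in parental cells. Of these 9, 2 were higher and 3 lower. The hypoxia-inducible CA9 was at 96.8 CPM in knockout and 16.6 CPM in parental cells (log2 fold change 2.55), NDUFA4L2 at 470 CPM in knockout and 276 CPM in parental cells (0.77), and EPAS1, which encodes HIF-2 alpha, at 131 CPM in knockout and 183 CPM in parental cells (-0.48). The proximal tubule markers LRP2 and AQP1 were at or near 0, at no more than 1 and 30 counts per library. The 9 leukocyte, endothelial and fibroblast markers had at most 10 counts per library, and CD3E had 0 in all libraries.

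Promoter windows of 4 of the S-phase-linked genes and the gap between PPAT and PAICS are shown first, because the results turn on these genes and because S-phase genes are known for E2F and CCAAT elements near their starts. Each stretch holds the 150 bases before a RefSeq start site (GRCh38.p14, given 5′ to 3′ on the gene's strand). Capitals mark the E2F letters TTTGGCGC, TTTCCCGC, TTTCGCGC or TTTGCCGC and the letters CCAAT, each on either strand. TYMS lies at chr18:657503-657652 (plus strand), DUT at chr15:48332047-48332196 (plus strand, the most downstream of its 4 starts), RRM2 at chr2:10122589-10122738 (plus strand) and TK1 at chr17:78187053-78187202 (minus strand).
TYMS: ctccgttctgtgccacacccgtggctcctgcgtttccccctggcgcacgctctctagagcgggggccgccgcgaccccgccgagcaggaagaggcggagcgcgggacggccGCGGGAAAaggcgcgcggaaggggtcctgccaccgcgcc
DUT: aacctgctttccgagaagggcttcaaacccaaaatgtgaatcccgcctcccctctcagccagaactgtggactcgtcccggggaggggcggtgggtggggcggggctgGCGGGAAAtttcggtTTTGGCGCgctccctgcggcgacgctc
RRM2: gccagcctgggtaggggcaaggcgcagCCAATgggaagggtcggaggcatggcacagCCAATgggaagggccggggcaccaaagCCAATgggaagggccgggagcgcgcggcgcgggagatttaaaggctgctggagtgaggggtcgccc
TK1: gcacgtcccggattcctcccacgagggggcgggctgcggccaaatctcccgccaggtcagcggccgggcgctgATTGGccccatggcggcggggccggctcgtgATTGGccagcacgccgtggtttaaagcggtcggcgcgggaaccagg
The TYMS window held 1 E2F match, beginning 39 bases before the start, and the DUT window held 2, at 42 and 27 bases before it. RRM2 carried 3 CCAAT copies, at 123, 93 and 66 bases before the start shown, and TK1 carried 2, at 77 and 46 bases before the start shown. RRM2 and TK1 each have another RefSeq start, and for DUT, RRM2 and TK1 the start with the most matches is shown. The other RRM2 start had a CCAAT copy 249 bases before it, and the other TK1 start had none. The other DUT starts had no E2F letters. Windows of 300 bases (250 before and 50 after the start) were in the table for 29 of the 32 genes, not for ADSL, IMPDH2 and RRM2B. E2F letters were found in 5 of these 29 genes, namely TYMS, DUT, DCK, PRPS2 and GART, against 3.99% of 27305 genes, and CCAAT in 11 of 29 against 39.7%. Of the 6 S-phase-linked genes, 2 had E2F letters and 4 had CCAAT (RRM1, RRM2, DTYMK and TK1), so that each had 1 kind. The E-box CACGTG was found in PPAT, PAICS, ATIC, DHODH, NME1 and DCK, 6 of 29 genes against 8.77%, none of which is S-phase-linked. The PPAT and PAICS matches are the same bases, counted once for each gene because their windows overlap. TGATGNAA, a form of the element that ATF4 binds with C/EBP partners, was found in 1 gene, DCTD, against 4.46% of genes, searched on both strands like the others. A match of letters is not a bound site, and these searches do not bear on the factors themselves.

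PPAT and PAICS, for the first and a later step of the purine ring, are transcribed away from each other. Of 3 RefSeq starts of PAICS, 1 lies 25108 bases before the PPAT start in the direction of PAICS transcription, and the others lie 137 and 645 bases beyond it. The 136 bases between the PPAT start and the nearest of these, at chr4:56435616-56435751, are given on the strand of PAICS and hold none of the searched letters. The E-box found in both windows lies outside this gap, just past that PAICS start.
PPAT-PAICS: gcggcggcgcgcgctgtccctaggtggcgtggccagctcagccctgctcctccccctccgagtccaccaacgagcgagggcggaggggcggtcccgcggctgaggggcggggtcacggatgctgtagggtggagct

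Across the 32 genes, 16 were higher and 6 lower in knockout cells and 10 were not called (edgeR quasi-likelihood F test, Benjamini-Hochberg adjusted over all 15321 genes, threshold 0.05). The comparison was broad, since 42.0% of all tested genes were called, 21.2% higher and 20.8% lower. The median log2 fold change was 0.10 over the 32 genes and 0.01 over all tested genes. In 21 of the 32 genes the knockout and parental libraries did not overlap, against 49.6% of all tested genes. The S-phase-linked genes were higher in 6 of 6 cases, with a median log2 fold change of 0.51 (1.43-fold). This set was chosen with earlier results of these data known, so its count describes the genes and is not a test. The other 26 genes were divided, with 10 higher, 6 lower and 10 not called, and a median of 0.03.

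**Figure D1:**
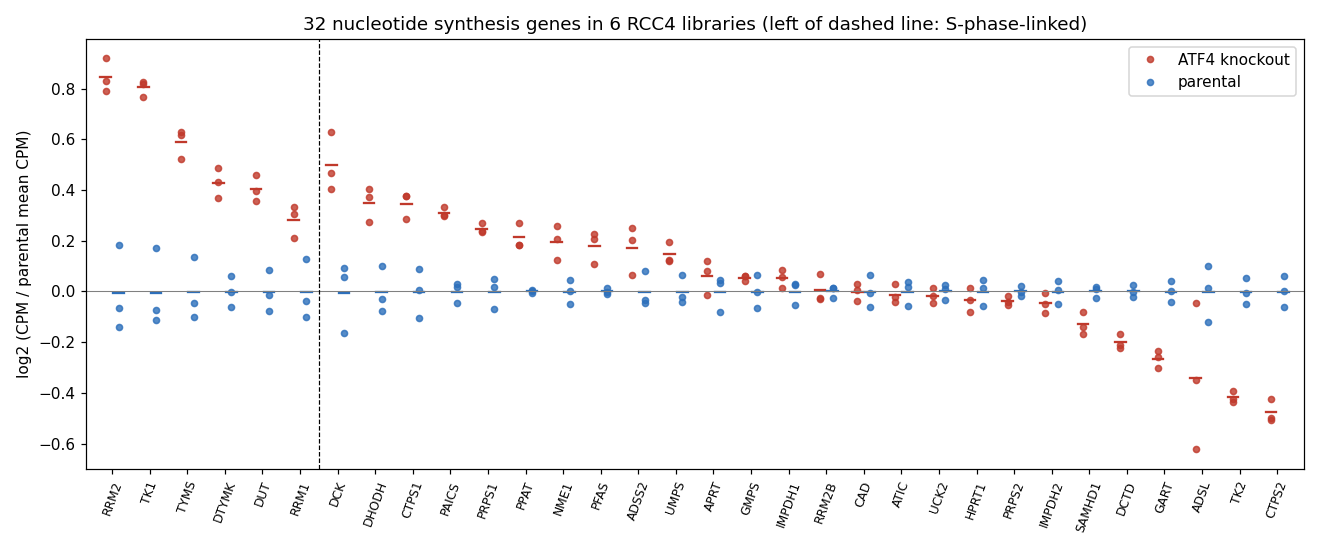
Each point is 1 library's CPM of 1 gene as log2 over the mean of the parental libraries, with ATF4 knockout in red to the left of parental in blue and short bars for the group means (n = 3 each). The 6 S-phase-linked genes, left of the dashed line, are all higher in knockout cells, whereas the other 26 run from DCK at 0.51 to CTPS2 at -0.48 in log2 fold change.

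The largest change was in RRM2, the S-phase small subunit of ribonucleotide reductase, which had 106, 96.5 and 99.3 CPM in knockout cells, against 53.4, 50.7 and 63.5 CPM in parental cells. Its log2 fold change was 0.85 (SE 0.093, 1.80-fold, adjusted p = 0.000928). Groups were well separated, and parental 3 was the highest of the parental libraries. RRM2 shares 1077 exon bases with another gene model, AC007240.1, on the same strand, and has 3 named pseudogenes. Its count, and any ratio that uses it, is therefore uncertain. RRM1, the large catalytic subunit, was at 99.8, 93.4 and 102 CPM in knockout and 75.2, 78.6 and 88.2 CPM in parental libraries, a smaller rise of 0.28 (SE 0.050, adjusted p = 0.000184). RRM2B, the p53-inducible small subunit that serves DNA repair and mitochondrial DNA outside S phase, was at 49.4, 46.1 and 46.3 CPM in knockout and 47.5, 46.2 and 47.5 CPM in parental cells. The values of RRM2B overlapped, with a log2 fold change of 0.01 and a 95% interval of -0.08 to 0.10.

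TK1, the cytosolic thymidine kinase of dividing cells, had 119, 119 and 114 CPM in knockout against 62.2, 64.0 and 75.7 CPM in parental libraries, a log2 fold change of 0.81 (SE 0.071, 1.75-fold, adjusted p = 6.54e-05). Per kilobase of exon, TK1 at 63.2 CPM in knockout and 36.2 CPM in parental cells was the most abundant of the S-phase-linked transcripts in both groups. TYMS, which methylates dUMP to dTMP, had 38.2, 41.2 and 40.8 CPM in knockout libraries, against 24.8, 25.8 and 29.2 CPM in parental ones. The rise of TYMS was 0.59 on the log2 scale (SE 0.055, 1.51-fold, adjusted p = 2.28e-13). ENOSF1, which overlaps TYMS on the opposite strand by 967 exon bases, was at 5.90 CPM in knockout and 5.65 CPM in parental cells and was not called.

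DTYMK, the kinase that turns dTMP into dTDP, was at 53.9, 51.9 and 49.7 CPM in knockout cells, against 36.8, 38.4 and 40.2 CPM in parental cells. The log2 fold change of DTYMK was 0.43 (SE 0.047, adjusted p = 2.88e-11). DUT, which hydrolyses dUTP and supplies dUMP, was at 63.2, 60.4 and 58.9 CPM in knockout cells, against 45.6, 43.6 and 48.8 CPM in parental cells, with a log2 fold change of 0.40 (SE 0.044, adjusted p = 4.25e-11). For both enzymes every knockout library was above every parental library.

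In each of the 6 S-phase-linked genes, parental 3 was the highest parental library and still below all knockout libraries. The same order held in 5 of the 26 other genes. Averaged over the 6 genes as centred log2(CPM + 0.5), the level was 0.31, 0.27 and 0.26 in knockout and -0.35, -0.34 and -0.15 in parental libraries, so that parental 3 stood apart. Leaving parental 3 out raised the median log2 fold change of the 6 genes to 0.56, and RRM2 to 0.95. The other 26 genes averaged 0.03, 0.01 and 0.01 in knockout and -0.02, -0.03 and -0.01 in parental libraries.

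Cell cycle transcripts moved in the same libraries, in lists to be read against the 21.2% of all tested genes that were called higher. Of the S phase list (replication licensing, polymerase and clamp genes, none of them nucleotide enzymes), 20 of 20 were higher, with a median log2 fold change of 0.55 and summed levels of 1297 to 1377 CPM in knockout and 871 to 1014 CPM in parental libraries. ORC1, CDC6 and CDT1, which license replication origins, changed by 1.05, 0.93 and 0.78 on the log2 scale, the cyclin CCNE2 by 0.68, the checkpoint adaptor CLSPN by 0.82 and the helicase subunit MCM7 by 0.52. Of the G2/M list 19 of 19 tested genes were higher, with a median of 0.80 and sums of 1583 to 1615 CPM in knockout and 857 to 1066 CPM in parental libraries, including CCNB2 (0.84), AURKB (0.70), CDC20 (0.90), BIRC5 (0.67), CCNA2 (0.77) and CENPE (0.89). Among E2F and RB pathway factors 12 of 17 were higher, with E2F8 at 1.14, E2F2 at 1.09, MYBL2 at 0.89 and E2F1 at 0.73. Without knockout 3, 1 gene of that list was lower. In bulk RNA, a larger share of cells in S phase and more RNA of these genes per cell cannot be told apart, and the part of cell cycle distribution in the enzyme values was not tested.

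**Figure D2:**
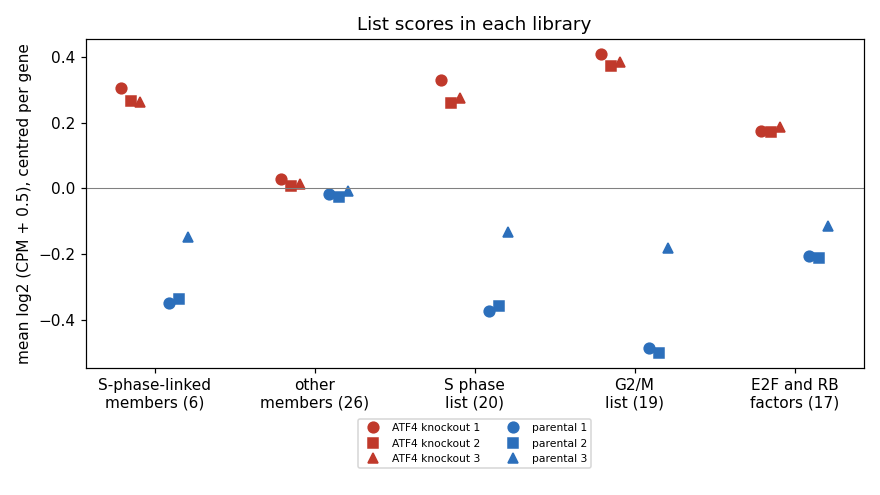
Points are the mean over a list of log2(CPM + 0.5), centred gene by gene, for each library (ATF4 knockout red and parental blue, symbols for replicates 1 to 3, numbers of genes in brackets). Parental 3 lies above the other parental libraries for the S-phase-linked enzymes (-0.15), the S phase list (-0.13), the G2/M list (-0.18) and the E2F and RB factors (-0.12), while the 26 other enzymes stay between -0.03 and 0.03.

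In the synthesis of PRPP, the activated ribose used by purine and pyrimidine pathways alike, 1 of the 2 isozymes was called. PRPS1 was higher in knockout cells, at 170, 167 and 166 CPM, against 134, 143 and 146 CPM in parental cells (log2 fold change 0.25, SE 0.031, adjusted p = 1.63e-09). PRPS2 was at 75.5, 74.3 and 73.7 CPM in knockout and 76.4, 75.7 and 77.6 CPM in parental libraries. PRPS2 was not called (log2 fold change -0.04, interval -0.11 to 0.03), although every knockout library lay below every parental one. Both genes are on chromosome X, where the neighbours of PRPS1 and PRPS2 had medians of -0.23 and -0.27. Relative to these neighbours both were called higher, PRPS1 by 0.47 (adjusted p = 5.12e-19) and PRPS2 by 0.23 (adjusted p = 7.64e-07).

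The 6 genes of the purine ring did not move together, with 3 higher, 2 lower and 1 not called. PPAT, the amidotransferase of the committed step, was at 44.4, 41.9 and 41.9 CPM in knockout and 37.0, 36.7 and 36.9 CPM in parental libraries (log2 fold change 0.21, SE 0.047, adjusted p = 0.000187). PAICS, a bifunctional carboxylase and SAICAR synthetase, was at 253, 247 and 248 CPM in knockout and 195, 203 and 205 CPM in parental libraries (0.31, SE 0.029, adjusted p = 1.33e-13). Thus both genes of the head-to-head pair were higher, with separate groups. PFAS, which makes the amidine intermediate from glutamine, was at 101, 99.6 and 93.1 CPM in knockout and 87.1, 85.7 and 86.1 CPM in parental libraries (0.18, SE 0.035, adjusted p = 2.29e-05).

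GART, the trifunctional enzyme of several ring steps, was lower, at 131, 129 and 125 CPM in knockout cells, against 149, 154 and 158 CPM in parental cells (log2 fold change -0.27, SE 0.031, adjusted p = 2.29e-10). GART lies on chromosome 21, and its neighbours had a median of -0.32. Relative to these neighbours the change of GART was 0.05 and was not called (adjusted p = 0.204). SON, which overlaps GART on the opposite strand by 275 exon bases, was lower too (-0.20). ADSL, which acts in the ring and again on the way to AMP, was at 6.00, 8.94 and 7.25 CPM in knockout and 9.91, 9.32 and 8.50 CPM in parental cells. These values overlapped, and the call of ADSL (-0.32, SE 0.107, adjusted p = 0.0158) was lost without knockout 1 (-0.20, adjusted p = 0.153), without knockout 3 (adjusted p = 0.0546) and without parental 1 (adjusted p = 0.0957). ADSL lies on chromosome 22, and its neighbours had a median of -0.26. Relative to these neighbours ADSL was not called (-0.058, adjusted p = 0.719). The count of ADSL is uncertain, since it shares 1344 exon bases with another gene model, AL022238.4, on the same strand, and it was the lowest of the 32 genes per kilobase (1.04 CPM in knockout and 1.30 CPM in parental cells). ATIC, which closes the ring, was at 184, 178 and 175 CPM in knockout and 173, 185 and 183 CPM in parental libraries, a log2 fold change of -0.01 with an interval of -0.07 to 0.05.

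Past IMP, 1 of 4 branch genes was called. IMPDH2, the main rate-limiting enzyme toward GMP, was the most abundant transcript of all 32 per kilobase, at 106 CPM in knockout and 109 CPM in parental cells. IMPDH2 was at 302, 293 and 285 CPM in knockout and 304, 312 and 293 CPM in parental libraries, which overlapped (-0.05, interval -0.10 to 0.01). Its isozyme IMPDH1 (0.05, interval -0.06 to 0.16) and the GMP synthetase GMPS (0.05, interval -0.01 to 0.12) were not called. ADSS2, which starts the branch to AMP, was at 39.8, 35.0 and 38.5 CPM in knockout and 32.6, 32.4 and 35.3 CPM in parental libraries (0.17, SE 0.052, adjusted p = 0.00510). The groups of ADSS2 overlapped and its call was lost without knockout 1 (adjusted p = 0.0681) and relative to its neighbours (0.096, adjusted p = 0.152).

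Neither purine salvage enzyme was called. HPRT1, which recovers hypoxanthine and guanine, averaged 67.1 ± 2.16 CPM in knockout and 68.6 ± 2.42 CPM in parental cells (SD, n = 3 each), and APRT, which recovers adenine, averaged 96.3 ± 4.55 CPM in knockout and 92.2 ± 4.29 CPM in parental cells. Both sets of libraries overlapped. HPRT1 is on chromosome X amid genes with a median of -0.20, and relative to them it was called higher (0.17, adjusted p = 0.000469).

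In the pyrimidine pathway, CAD, the trifunctional enzyme of the opening steps, was at 147, 140 and 144 CPM in knockout and 150, 143 and 138 CPM in parental libraries. CAD had a log2 fold change of -0.00 and an interval of -0.06 to 0.06. The enzymes of the next steps, DHODH and UMPS, were higher. DHODH, the mitochondrial dehydrogenase that makes orotate, was at 13.9, 12.7 and 13.6 CPM in knockout and 11.2, 9.93 and 10.3 CPM in parental cells (0.35, SE 0.081, adjusted p = 0.000327), and UMPS, which makes UMP from orotate, was at 68.4, 68.4 and 71.9 CPM in knockout and 61.0, 61.9 and 65.7 CPM in parental cells (0.15, SE 0.039, adjusted p = 0.00188). The groups did not overlap for either gene.

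The 2 CTP synthases, which aminate UTP to CTP, were called in opposite directions. CTPS1 was at 31.9, 30.0 and 31.8 CPM in knockout and 24.7, 22.9 and 26.1 CPM in parental libraries (0.35, SE 0.056, adjusted p = 7.75e-07). CTPS2 was at 27.4, 25.9 and 26 CPM in knockout and 38.3, 36.8 and 35.2 CPM in parental libraries (-0.48, SE 0.052, adjusted p = 4.27e-11). CTPS2 lies on chromosome X, and relative to its neighbours, whose median was -0.26, it was still lower, by -0.21 (adjusted p = 0.000788). Of the kinases, UCK2, which phosphorylates uridine and cytidine, was not called (-0.02, interval -0.09 to 0.06), whereas NME1, a nucleoside diphosphate kinase, was at 44.4, 42.9 and 40.4 CPM in knockout and 35.9, 38.4 and 37.2 CPM in parental cells (0.20, SE 0.048, adjusted p = 0.000744). NME1 shares 638 exon bases with the read-through gene NME1-NME2, which was listed at 0, so reads in that part may be missing from its count.

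Among the deoxynucleotide genes outside the S-phase-linked set, DCK was higher and DCTD, TK2 and SAMHD1 were lower. DCK, which phosphorylates deoxycytidine and purine deoxynucleosides, was at 15.4, 16.1 and 18.0 CPM in knockout and 12.1, 10.4 and 12.4 CPM in parental libraries (0.51, SE 0.078, 1.42-fold, adjusted p = 3.10e-07), the largest rise of the 26 other genes. TK2, the thymidine kinase of mitochondria, was at 46.1, 46.5 and 47.6 CPM in knockout and 62.2, 64.8 and 60.4 CPM in parental libraries (-0.42, SE 0.042, 1.34-fold lower, adjusted p = 3.05e-12). For TK2 the neighbours on chromosome 16 had a median of 0.05, and the change relative to them was -0.46. TK2 shares 226 exon bases with AC010542.3 on the same strand, and 511 and 1056 with AC010542.2 and AC010542.4 on the opposite strand. DCK shares 199 exon bases with MOB1B on the same strand. The counts of TK2 and DCK, and any ratio that uses TK2, are therefore uncertain.

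DCTD, which deaminates dCMP to dUMP, was at 92.9, 95.8 and 92.2 CPM in knockout and 107, 106 and 109 CPM in parental libraries (-0.20, SE 0.033, adjusted p = 1.23e-06). Of the 4 genes grouped here as dTMP and dTTP synthesis, DCTD alone was lower, beside TYMS, DUT and DTYMK. The thymidine kinases TK1 and TK2 were grouped under salvage. SAMHD1, the hydrolase that breaks down dNTPs, was at 31.3, 29.5 and 30.1 CPM in knockout and 32.5, 33.3 and 33.6 CPM in parental libraries, separate by a narrow gap (-0.13, SE 0.051, adjusted p = 0.0373). On chromosome 20 the neighbours of SAMHD1 had a median of -0.15, and its call was also lost without knockout 2, knockout 3, parental 2 or parental 3 (adjusted p = 0.145, 0.0836, 0.0820 and 0.0917).

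**Figure D3:**
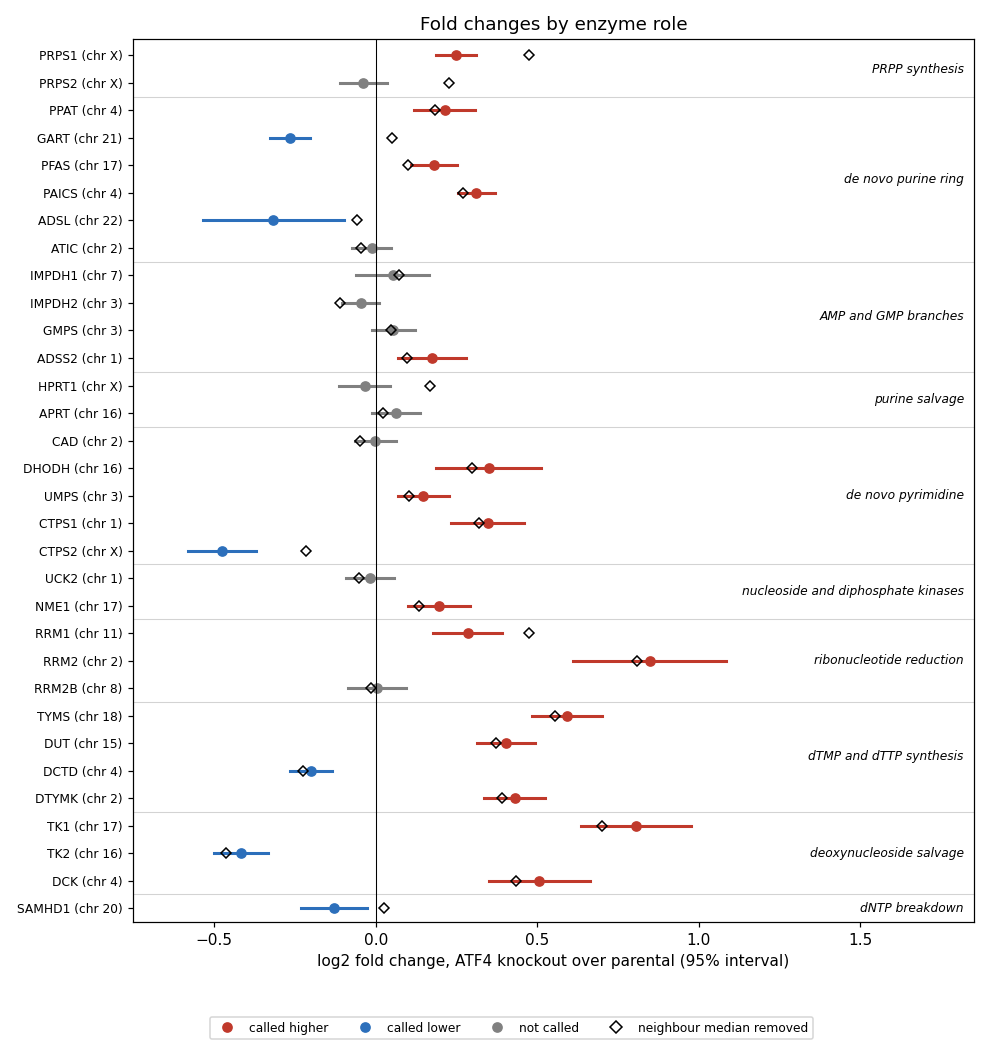
Circles give the log2 fold change of ATF4 knockout over parental with 95% intervals for the 32 genes, ordered by step of the pathway, in red where called higher, blue where called lower and grey where not called, and open diamonds give the change minus the median of the neighbours (up to 50 tested genes on each side). Diamonds move right of the circles for the genes on chromosomes X, 11, 20, 21 and 22, so that GART has a circle at -0.27 and a diamond at 0.05, and RRM1 a circle at 0.28 and a diamond at 0.48.

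Of the 6 lower genes, 4 lie on chromosomes X, 20, 21 and 22, whose medians over all tested genes were -0.23, -0.15, -0.22 and -0.28. The 24 genes outside these chromosomes and chromosome 11 had neighbour medians of -0.02 to 0.11. When the neighbour median was taken off each gene, 17 of the 32 were higher and 4 lower, the lower ones being CTPS2, TK2, DCTD and IMPDH2. All 6 S-phase-linked genes were higher in this setting as well, with RRM1 on chromosome 11 at 0.48. Gene copy number was not measured, and its part in these regional values was not tested.

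Ratios of isozymes and subunits within a library, which need no scaling between libraries, were compared for 6 pairs. Their exact two-sided permutation tests over 3 against 3 libraries cannot give p below 0.1. The log2 ratio TK1/TK2 was 1.37, 1.35 and 1.27 in knockout and 0.00, -0.02 and 0.33 in parental libraries, a difference of 1.23 (2.34-fold). For RRM2/RRM2B the ratio averaged 1.09 ± 0.020 in knockout and 0.24 ± 0.155 in parental cells (SD, n = 3 each), a difference of 0.85. The small and large subunits of the reductase, RRM2/RRM1, stood at 0.03 ± 0.058 in knockout and -0.53 ± 0.086 in parental cells, a difference of 0.57. CTPS1/CTPS2 stood at 0.24 ± 0.045 in knockout and -0.58 ± 0.136 in parental cells, so that CTPS1 counts exceeded CTPS2 counts in all knockout libraries and in no parental library. PRPS1/PRPS2 averaged 1.17 in knockout and 0.88 in parental cells, a difference of 0.29. These 5 differences had separate groups and the smallest exact permutation p, 0.1 (0.12 adjusted over the 6 pairs). IMPDH1/IMPDH2, at -3.53 ± 0.040 in knockout and -3.63 ± 0.069 in parental cells, overlapped (exact p = 0.2). No ratio was adjusted for neighbours, whose median log2 fold changes were -0.19 for RRM1 and 0.04 for RRM2. For CTPS2 and CTPS1 the neighbour medians were -0.26 and 0.03, so that part of these 2 differences may be regional, which was not tested.

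**Figure D4:**
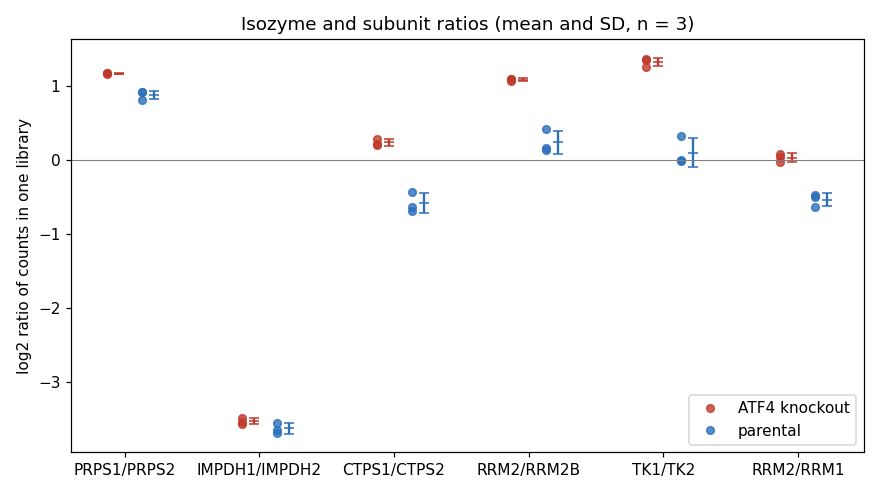
Points are log2 ratios of counts (prior 0.5) of 2 genes in the same library, with mean and SD beside them (n = 3 each, ATF4 knockout red and to the left of parental blue). The pairs TK1/TK2, RRM2/RRM2B and CTPS1/CTPS2 are farthest apart, by 1.23, 0.85 and 0.82, and the groups overlap only for IMPDH1/IMPDH2.

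Of 40 other tested genes of nucleotide metabolism, 12 were higher and 8 lower, with a median log2 fold change of 0.02. Among all tested genes 21.2% were called higher and 20.8% lower. The counts of this list and of the folate and transporter lists are therefore not read as particular to these genes. UPP1, the uridine phosphorylase, was lower at 17.9 ± 0.326 CPM in knockout and 26.6 ± 1.03 CPM in parental cells (-0.57, adjusted p = 7.20e-12), and the weakly expressed ADSS1 was higher at 1.60 ± 0.213 CPM in knockout and 1.04 ± 0.146 CPM in parental cells (0.63, adjusted p = 0.0206). Chosen after their values were seen, PNP, which cleaves purine nucleosides, was higher (0.47), and ADA and AMPD2, which deaminate adenosine and AMP, were lower (-0.39 and -0.35). Of 12 genes of folate supply 5 were higher and 4 lower. Among those higher were GGH, SLC19A1, MTHFD1 and FPGS, with log2 fold changes of 0.30, 0.24, 0.21 and 0.21, whereas MTHFD2, FOLR1, SHMT1 and MTHFD1L had log2 fold changes of -0.47, -0.29, -0.15 and -0.14. Of 4 tested nucleoside transporters 2 were lower, SLC29A1 (-0.32) and SLC29A4 (-0.36).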

How the data were processed

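Per the labels, RNA was extracted with a kit and sequenced as stranded libraries of mRNA. The authors deposited raw counts of reads per gene, and the submitters' processing notes name bcl2fastq 2.20, cutadapt, STAR, HTSeq and GRCh38. For the other versions, the annotation release and the strand setting (not given in the sources used here) nothing was assumed. Counts of overlapping and antisense genes and of genes with pseudogene copies (most in DUT 8, PAICS 7, IMPDH1 7) are therefore uncertain.

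Symbols for 60370 identifiers came from a gene-name table and 289 more from GENCODE 29, which also gave coordinates and exon lengths. Counts were filtered (filterByExpr), scaled by TMM and compared with edgeR 4.0.16 (quasi-likelihood F test, robust, R 4.3.3) without a replicate term, with Benjamini-Hochberg adjustment over the 15321 genes kept. SE was the absolute log2 fold change over the square root of F. Alternatives used DESeq2 1.42.0, limma 3.58.1 (voom), DESeq2 size factors, total counts, no filter, a mean of at least 1 CPM, each sample left out, a replicate block, and the median of up to 50 tested genes on each side taken off. The test was checked on simulated counts with 50 changed genes at each fold. It called 56% of them at 1.2-fold, 86% at 1.5-fold, 84% at 2-fold and 96% at 4-fold. Of its calls in the simulation, 6.4% were false. The simulated fit kept 15113 genes and no others were changed, whereas 42.0% of tested genes were called in the data. These rates therefore need not hold for the data. Promoter windows were RefSeq's.

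All 32 genes are named. From other lists, called genes with an absolute log2 fold change of at least 0.5 (at most 6 per list), and those of lists with 5 or fewer calls in a direction, are named. A gene covered by this rule is not reported here. The genes and lists were chosen with earlier results of these data known.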

Additional observations from a re-analysis of the deposited data

How the results depend on the processing

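Of 448 log2 fold changes of the 32 genes under the alternatives, 416 kept their direction and side of the threshold, 12 lost a call and 4 gained one in the same direction, and 16 turned direction. With the neighbour median removed, PRPS2 turned to 0.23, GART to 0.051, HPRT1 to 0.17 and SAMHD1 to 0.024. The other 12 turns were of genes close to 0 that were called in neither fit, the largest at 0.032 in size. ATIC was 0.013 with total counts and -0.041 to 0.0069 over samples left out in turn (above 0 without knockout 3 or parental 2), and UCK2 was 0.0088 with total counts. CAD was 0.025 with total counts, 0.0035 with no filter and -0.031 to 0.032 over samples left out (above 0 without knockout 2 or parental 1). RRM2B was -0.00038 with the strict filter, -0.014 with neighbours removed and -0.032 to 0.023 over samples left out (below 0 without knockout 1 or parental 2). The cause was not tested. Counts ranged from 15 to 18 higher and from 4 to 6 lower, and leaving out single samples gave 15 to 17 higher and 4 to 5 lower. All 6 S-phase-linked genes were higher in every alternative run, with RRM2 between 0.78 and 0.95. With total counts in place of TMM, GMPS (0.08) and APRT (0.09) were called higher and SAMHD1 was not called. The calls of ADSL, ADSS2 and SAMHD1 were lost without some single samples, and APRT was called without knockout 3 (0.098).

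The replicate numbers did not pair the samples (correlations of deviations -0.014, 0.032 and -0.006), and with the replicate block 16 genes were higher and 6 lower. In other lists, the number of lower genes was 5 with total counts (8 as reported) for nucleotide metabolism, 2 with neighbours removed (4 as reported) for folate supply, and 1 without parental 1 (2 as reported) for nucleoside transport. The median of the other 26 genes was 0.05 with total counts and 0.06 with neighbours removed. ADSL, with the fewest counts, had the largest SE of the 32 genes (0.107).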
